A study of Mus musculus with 7 samples.

Results

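Rab genes encode small GTPases that mark the membranes of the cell. A Rab protein is active while it holds GTP: exchange factors load it, activating proteins end the signal by speeding GTP hydrolysis, and effectors such as tethers, motors and sorting proteins read the active form. Early endosomes carry Rab5, late endosomes and lysosomes Rab7, recycling endosomes Rab11 and the membranes between the endoplasmic reticulum and the Golgi Rab1, and the same proteins serve the delivery of cargo to lysosomes during autophagy. The table of the study was searched for every gene symbol that begins with Rab followed by a digit, and 67 of 23930 rows matched. Of these, 54 were Rab GTPases, 9 encoded proteins named for a Rab that they bind or regulate (Rab3gap1, Rab3gap2, Rab3il1, Rab3ip and Rab11fip1 to Rab11fip5), and 4 were noncoding RNAs named after a neighbouring Rab gene. No row carried the symbols Rab4b, Rab11b, Rab33b, Rab39b or Rab43, so these were not analysed.

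RNA came from hind leg muscle of adult Pax7-GFP reporter mice. The strain is taken as C57BL/6 for all from the growth protocol, although the number after the slash in the genotype labels goes up by 1 from each sample to the next, starting from C57BL/6 in NC1. In these mice, as the study's methods describe them, a tamoxifen-activated Cre made from the Pax7 gene removes a stop cassette, so that cells with Pax7 expression at the time of induction, and their progeny, turn green. All animals received tamoxifen at 12 weeks of age and were collected at 16 weeks, after 4 weeks in room air (normocapnia, NC1 to NC3) or in a chamber with 10% CO2 (hypercapnia, HC1 to HC4). The methods add a cardiotoxin injury of the leg muscles of both groups 3 days before collection, which the labels do not mention. The name of the deposited table carries a time of 40 hours whose meaning is not stated, so the time from injury to collection is uncertain. GFP-positive cells were sorted and their RNA was read with a panel of 1 amplicon per gene, so a level can be compared between libraries but not between genes. Values are RPM, the reads of a gene scaled to a common library total. No source used here says whether each library came from 1 animal, so p-values measure the spread between these 7 libraries.

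The libraries held 14527445 to 23388710 reads, and 3 reads, taken here as the floor, correspond to 0.128 to 0.207 RPM. The sexes were mixed: Xist, the RNA that coats the inactive X chromosome, was at 445 to 701 RPM in NC1, NC2, HC1 and HC2, and the 4 Y-linked genes examined summed to 242 to 428 RPM in NC3, HC3 and HC4 and to at most 0.178 RPM in the others. NC3 was therefore the one normocapnia library with Y-linked genes, and within normocapnia the library and the presence of Y-linked genes cannot be told apart. The label of Pax7-positive stem cells was met unevenly. Pax7 ran from 4.34 RPM in NC3 to 268 RPM in NC1, with 20.1 to 79.5 RPM in hypercapnia, and the 10 satellite cell and myoblast genes examined summed to 154 to 3592 RPM in normocapnia and 354 to 1206 RPM in hypercapnia. The 12 macrophage genes summed to 13520 to 37520 RPM and 21350 to 26410 RPM, with Lyz2 at 8354 RPM or more in every library but C1qa at 0.452 RPM or less, and among neutrophil genes Mpo was at 0 in all 7. Over all 7 libraries the other marker lists summed to 65.4 to 294 RPM (neutrophil), 55.7 to 549 RPM (endothelial), 871 to 2278 RPM (fibro-adipogenic), 839 to 2324 RPM (mast cell) and 229 to 4334 RPM (myofiber). The part of these cells in the Rab values was not tested. In such bulk RNA, fewer cells of a type and less RNA per cell cannot be told apart.

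Most of the Rab repertoire was detected. Of the 54 GTPases, 41 had a mean of at least 1 RPM and 29 a mean of at least 10 RPM. Rab3c, Rab7 and Rab9b were listed at 0 in all 7 libraries, and Rab17, Rab20, Rab25 and Rab37 did not exceed 3 reads in any. Rab7 is used by every cell, so its 0 says only how its amplicon was listed. Hypercapnia was compared with normocapnia by limma on log2(RPM + 1) over all rows, and a gene was called where the unadjusted p was under 0.05 with a change of more than 1.5-fold. Only Rab5a met both, as 1 of 54 GTPases (1.85%), against 615 of all 23930 rows (2.57%), of which 1.14% of all rows were called lower. None of the 9 associated genes and none of the 4 noncoding RNAs was called. At an unadjusted p under 0.05 without the fold threshold, 2 GTPases (3.70%) passed by limma, Rab5a and Rab28, against 4.66% of all rows. After Benjamini-Hochberg adjustment over the table no row passed in limma or edgeR, and the lowest adjusted p of a Rab GTPase was 0.712 in limma and 0.758 in edgeR. On recovered whole reads edgeR called 3 of 46 GTPases (6.52%, against 6.03% of rows) and DESeq2 6 of 54 (11.1%, against 5.45% of rows, with rows lacking a p counted as not called), with 29 rows but no Rab GTPase past adjustment in DESeq2. The edgeR calls were Rab5a, Rab12 and Rab22a, all lower, and DESeq2 added Rab2b and Rab28 as lower and Rab8b as higher. Without a filter edgeR called 5 of 54 (9.26%, against 4.38% of rows), Rab8b higher and Rab2b, Rab5a, Rab12 and Rab22a lower, and limma on rows with a mean of at least 1 RPM called 3 of 41 (7.32%, against 4.46% of rows), Rab5a lower and Rab8b and Rab32 higher.

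The separation of the groups was also read without a model. Among the 29 GTPases with a mean of at least 10 RPM, 4 (13.8%) had normocapnia and hypercapnia values that did not overlap, against 9.62% of the 8229 rows at that level. Rab5a, Rab22a and Rab28 lay lower in hypercapnia and Rab27a higher. After median-of-ratios scaling or quantile normalization Rab22a and Rab27a overlapped, and Rab5a and Rab28 were still apart, although Rab5a was not called with the former. The median log2 fold change of the 41 GTPases with a mean of at least 1 RPM was 0.11 and that of all rows at that level 0.16. A positive difference was held by 24 of the 41 (58.5%), against 62.1% of those rows. With all 7 libraries these values of the family lay near those of the table. Without NC3 the medians were 0.01 and -0.07, and without NC1 they were 0.11 and 0.36.

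The promoters of 5 members are shown because the results turn on them: the 3 genes of the Rab5 family, of which only Rab5a was called, and Rab22a and Rab28, which lay apart in the same direction. Each window holds 250 bases before and 50 after the start of the gene, 5′ to 3′ on the gene's strand, from RefSeq (GRCm38.p6), where 43 of the 54 GTPases were matched. Capitals mark 3 short motifs, searched on both strands: the E-box CACGTG, the CCAAT box (CCAAT or ATTGG) and the GC box (GGGCGG or CCGCCC), whose matches may overlap each other. The windows are Rab5a (chr17:53478984-53479283, plus strand), Rab5b (chr10:128696219-128696518, minus strand), Rab5c (chr11:100738166-100738465, minus strand), Rab22a (chr2:173659595-173659894, plus strand) and Rab28 (chr5:41708130-41708429, minus strand).
Rab5a: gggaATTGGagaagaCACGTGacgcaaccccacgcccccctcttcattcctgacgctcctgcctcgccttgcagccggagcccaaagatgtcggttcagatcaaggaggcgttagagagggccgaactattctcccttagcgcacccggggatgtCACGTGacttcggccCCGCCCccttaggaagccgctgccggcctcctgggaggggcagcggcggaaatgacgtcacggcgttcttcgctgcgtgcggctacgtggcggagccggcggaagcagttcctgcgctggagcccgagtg
Rab5b: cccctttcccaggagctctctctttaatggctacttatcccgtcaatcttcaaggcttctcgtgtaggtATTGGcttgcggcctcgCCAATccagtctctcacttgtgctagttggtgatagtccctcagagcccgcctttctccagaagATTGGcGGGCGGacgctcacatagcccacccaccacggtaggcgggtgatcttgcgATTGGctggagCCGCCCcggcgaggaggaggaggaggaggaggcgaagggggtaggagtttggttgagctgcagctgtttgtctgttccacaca
Rab5c: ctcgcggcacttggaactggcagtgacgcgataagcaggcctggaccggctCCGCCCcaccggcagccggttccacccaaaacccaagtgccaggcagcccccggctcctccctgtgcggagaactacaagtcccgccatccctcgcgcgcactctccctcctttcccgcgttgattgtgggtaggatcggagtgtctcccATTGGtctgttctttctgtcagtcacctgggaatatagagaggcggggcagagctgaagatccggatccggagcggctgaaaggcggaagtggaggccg
Rab22a: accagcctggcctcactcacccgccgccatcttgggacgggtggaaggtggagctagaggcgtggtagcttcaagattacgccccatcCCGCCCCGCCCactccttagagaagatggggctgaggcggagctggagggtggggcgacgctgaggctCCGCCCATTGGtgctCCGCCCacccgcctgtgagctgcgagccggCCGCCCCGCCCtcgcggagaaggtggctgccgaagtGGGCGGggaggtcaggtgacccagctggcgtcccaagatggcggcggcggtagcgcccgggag
Rab28: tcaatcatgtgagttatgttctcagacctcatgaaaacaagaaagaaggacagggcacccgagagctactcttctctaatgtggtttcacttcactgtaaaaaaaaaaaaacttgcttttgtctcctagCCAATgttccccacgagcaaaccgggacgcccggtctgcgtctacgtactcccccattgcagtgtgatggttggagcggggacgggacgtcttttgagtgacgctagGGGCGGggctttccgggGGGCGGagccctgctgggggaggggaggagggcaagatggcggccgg
The Rab5a window held CACGTG at 2 places, which 0.625% of all 27025 windows and 1.28% of those of genes with 10 RPM or more on average do, while 7.24% of all windows held it at least at 1 place. No CACGTG was found in the windows of Rab5b, Rab5c, Rab22a and Rab28. Of the 43 Rab windows, 5 (11.6%) held the E-box, and among all genes measured at 10 RPM or more on average it was in 10.9% of windows. Rab5b held 4 CCAAT boxes and Rab22a 7 GC boxes, some of them overlapping. At least 2 CCAAT boxes were in 12.2% of all windows and 14.8% of those of genes with 10 RPM or more on average. For GC boxes these shares were 19.6% and 41.7%. The 5 windows were chosen after the values were seen. CCAAT boxes were in 37.9% and GC boxes in 35.9% of all windows, and in 48.8% and 72.1% of Rab windows, whose GC content was also higher (median 62.0% against 52.7%). Among all genes at 10 RPM or more on average the shares were 37.5% and 67.3%, with a median GC content of 61.7%. These are matches of letters and not measured sites.

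The early endosome members held the called gene. Rab5a, which drives the fusion of early endosomes, read 89.2, 99.6 and 148 RPM in the normocapnia libraries (NC1 to NC3, in this order throughout) and 69.7, 61.4, 72.6 and 64.0 RPM in the hypercapnia libraries (HC1 to HC4). Every hypercapnia library lay below every normocapnia library, and the hypercapnia values were tightly grouped. Rab5a fell by 0.70 on the log2 scale (SE 0.19, 95% confidence interval -1.17 to -0.24, limma adjusted p = 0.836), from 112 ± 31.2 RPM (SD, n = 3) to 66.9 ± 5.15 RPM (SD, n = 4). The exact permutation test over the 35 possible groupings gave p = 0.0286, the smallest it can give. The highest value was that of NC3, and without NC3 the change of Rab5a was -0.49, under the fold threshold. Within the libraries with Xist the difference was -0.52 and within those with Y-linked genes -1.10, with no overlap in either, and Rab5a was not called in the libraries with Xist alone, where it was under the fold threshold, nor after median-of-ratios scaling (-0.85). In normocapnia the summed macrophage genes had the same order as Rab5a, lowest in NC1 and highest in NC3. In hypercapnia that sum lay within the normocapnia range. The part of macrophage content in the value of Rab5a was not tested. The level of Rab5a is uncertain to the extent that reads of its annotated pseudogene were counted with it.

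Neither of the other Rab5 genes was called. Rab5b, a paralogue on early endosomes, read 47.6, 67.5 and 4.47 RPM in normocapnia and 66.3, 75.3, 39.99 and 44.8 RPM in hypercapnia. NC3 stood far below the other 6 libraries, and the log2 difference of 1.08 (SE 0.94) was -0.05 without it. Rab5c, the third paralogue, read 171, 215 and 234 RPM against 209, 238, 185 and 148 RPM, and the groups overlapped (log2 difference -0.09, 95% confidence interval -0.58 to 0.40). The interval of Rab5c leaves out a change of 1.5-fold downward by a small margin, and that of Rab5b spans from -1.27 to 3.43.

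Rab22a, which acts between early endosomes and recycling tubules, read 62.9, 82.1 and 162 RPM in normocapnia and 57.0, 60.6, 60.9 and 53.8 RPM in hypercapnia. Its groups did not overlap, but the gap between NC1 and the hypercapnia libraries was small. The log2 difference was -0.69 (SE 0.32, limma adjusted p = 0.915), and it was -0.31 without NC3. Rab14, which carries cargo between endosomes and the Golgi, read 255, 295 and 127 RPM against 433, 231, 204 and 297 RPM, with overlap. Rab31, a relative of Rab22a with work in both secretory and endocytic transport, read 178, 275 and 90.6 RPM against 214, 212, 171 and 171 RPM, with all hypercapnia values inside the normocapnia range. Rab21, linked to integrin uptake, ran from 98.3 to 170 RPM in normocapnia and from 143 to 190 RPM in hypercapnia. Of the 10 early endosome members, 7 had a mean of at least 10 RPM. Their median log2 difference was 0.21, against 0.13 for all rows at that level. Without NC3 the differences of Rab5a, Rab5b, Rab22a and Rab31 were negative and those of Rab5c, Rab14 and Rab21 positive. That turns the sign of the median.

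**Figure D1:**
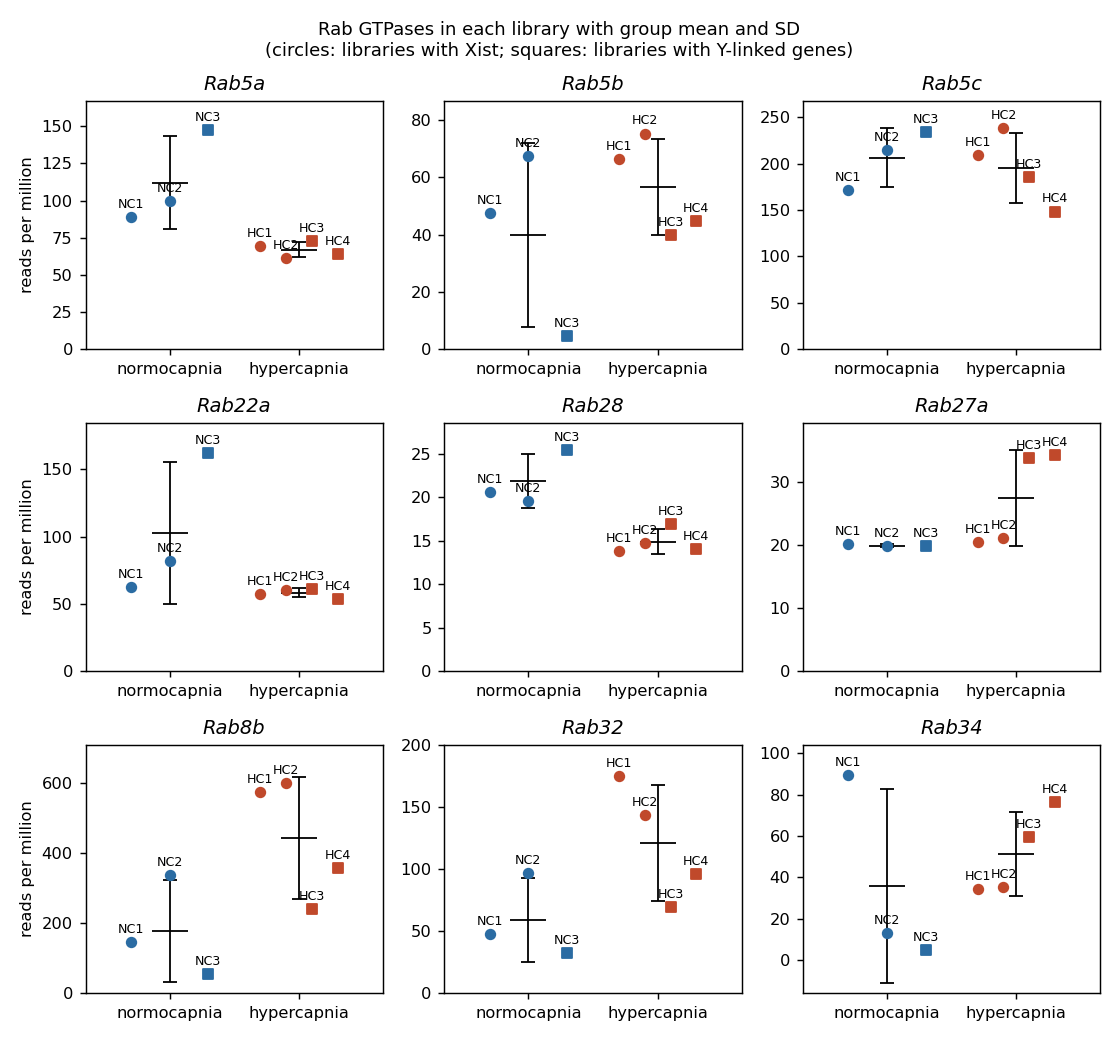
Level in RPM of 9 Rab GTPases in each of the 7 libraries, by group, with the group mean and SD (bars). Circles are libraries with Xist and squares libraries with Y-linked genes; Rab5a, Rab22a and Rab28 lie lower and Rab27a higher in hypercapnia with no overlap, and Rab5b drops to 4.47 RPM in NC3 alone.

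Between the endoplasmic reticulum and the Golgi, 11 members were listed, 6 of them with a mean of at least 10 RPM. The median log2 difference of those 6 was -0.37, against 0.13 for all rows at that level. None was called. Without NC3, Rab1a stood at 0.45 and the others of the 6 ran from -0.75 (Rab6a) to -0.10 (Rab2a). Rab1a, needed for transport from the endoplasmic reticulum to the Golgi and for the start of autophagosomes, read 294, 543 and 1231 RPM in normocapnia and 679, 649, 482 and 417 RPM in hypercapnia. All hypercapnia values lay inside the normocapnia range. Its paralogue Rab1b read 94.3, 162 and 22.4 RPM against 117, 138, 102 and 87.0 RPM, so NC3 held the highest Rab1a and the lowest Rab1b. Rab2a, a Golgi GTPase that also acts on lysosome fusion, ran from 220 to 413 RPM in normocapnia and from 223 to 284 RPM in hypercapnia. Rab2b, singled out after its values were seen, read 14.01, 11.1 and 28.3 RPM against 9.07, 11.2, 9.62 and 8.87 RPM. The log2 difference of Rab2b was -0.71 (SE 0.32) and -0.34 without NC3, with HC2 just above NC2. Rab6a, of transport within and out of the Golgi, and Rab18, of lipid droplets and the endoplasmic reticulum, were also chosen after their values were seen and had log2 differences of -0.44 each with overlap.

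For recycling and delivery to the cell surface, 9 members were listed and none was called. Rab8b, which acts in the traffic of membrane proteins to the surface and was singled out after its values were seen, had the widest difference in the family. It read 144, 338 and 52.7 RPM in normocapnia and 574, 601, 241 and 357 RPM in hypercapnia. NC2 lay above HC3, and every other normocapnia value lay below every hypercapnia value. The log2 difference of Rab8b was 1.59 (SE 0.71, 95% confidence interval -0.17 to 3.35), with 178 ± 146 RPM (SD, n = 3) against 443 ± 173 RPM (SD, n = 4). It was 0.91 without NC3. Its relative Rab8a, of transport to cilia and the surface, read 44.6, 54.6 and 89.3 RPM against 66.7, 69.8, 55.0 and 50.7 RPM, and the 95% confidence interval of its difference was centred near 0 (-0.66 to 0.65).

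Rab12, which links recycling endosomes to the breakdown of the transferrin receptor and to autophagy, read 89.1, 46.5 and 141 RPM in normocapnia and 41.0, 43.5, 55.0 and 53.8 RPM in hypercapnia. Only NC2 overlapped with the hypercapnia libraries. The log2 difference of Rab12 was -0.79 (SE 0.38) and -0.42 without NC3. Rab10, of transport to the plasma membrane, read 333, 213 and 769 RPM against 310, 252, 299 and 355 RPM. Its antisense RNA Rab10os, a row of its own, read 0.688 to 4.79 RPM, and no source used here says whether the counting used strand. Rab11a, the GTPase of recycling endosomes, read 97.5, 153 and 120 RPM against 189, 175, 114 and 122 RPM, with overlap. Rab35, of fast recycling, read 133 to 146 RPM in hypercapnia, with 105 to 177 RPM in normocapnia.

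**Figure D2:**
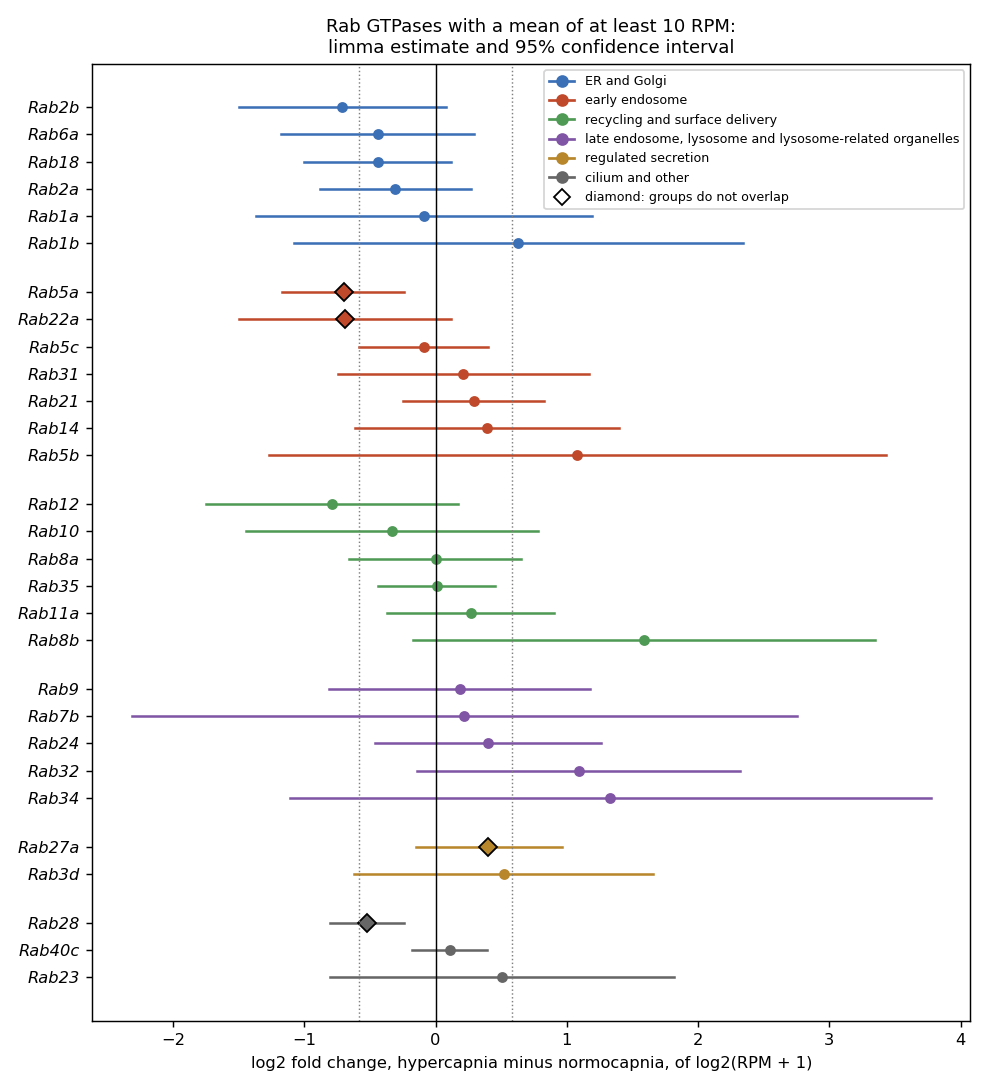
Log2 fold change of hypercapnia minus normocapnia on the log2(RPM + 1) scale for the 29 Rab GTPases with a mean of at least 10 RPM, by role, with 95% confidence intervals from limma; dotted lines mark a fold change of 1.5 and diamonds the members whose groups do not overlap. Only the intervals of Rab5a and Rab28 lie wholly on one side of 0.

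Of the 11 late endosome, lysosome and lysosome-related members, 5 had a mean of at least 10 RPM, with log2 differences from 0.19 to 1.33, and none was called. The positive sign, which 62.1% of all rows with a mean of at least 1 RPM shared, did not hold under every alternative. Without NC3 Rab9 was at -0.20 and Rab7b at -0.40, with quantile normalization they were at -0.02 and -0.14, Rab7b was also below 0 in edgeR, in DESeq2 and without NC1, HC1 or HC2, and Rab34 was at -0.01 in the libraries with Xist. Rab32, which brings cargo to lysosome-related organelles and acts at mitochondria, read 47.2, 96.5 and 32.1 RPM in normocapnia and 175, 143, 69.4 and 96.2 RPM in hypercapnia. NC2 lay above HC3 and just above HC4, and the other normocapnia values lay below all 4 hypercapnia values. The log2 difference of Rab32 was 1.09 (SE 0.49, limma adjusted p = 0.915). Rab34, singled out after its values were seen, acts in lysosome positioning and cilium formation and read 89.7, 13.3 and 4.89 RPM against 34.2, 35.6, 59.7 and 76.3 RPM. Its difference of 1.33 (SE 0.98) had NC1 at the top and NC3 at the bottom of all 7 libraries, which was also the order of Pax7 and of the summed satellite cell genes at those ends. The difference was 0.46 without NC3 and 2.43 without NC1, where it was called. The part of satellite cell content in the value of Rab34 was not tested.

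Rab24, linked to late steps of autophagy, read 38.9, 58.7 and 25.1 RPM in normocapnia and 63.1, 65.1, 41.2 and 40.6 RPM in hypercapnia. Its log2 difference was 0.40 (SE 0.34), with 0.10 without NC3 and 0.69 without NC2. Rab9, of transport from late endosomes to the Golgi, read 28.5, 34.1 and 13.6 RPM against 36.9, 34.1, 21.99 and 19.4 RPM. Both overlapped, and in both HC1 and HC2 lay above HC3 and HC4. HC1 and HC2 lay wholly above or below HC3 and HC4 in 65.5% of the 29 GTPases and 68.4% of all rows with a mean of at least 10 RPM, a division that coincides with that of Xist and Y-linked genes. Rab38, a relative of Rab32 in pigment and lung granule traffic, was low in all libraries, at 0.727 to 2.32 RPM. Rab7b, of transport from late endosomes to the Golgi network, read 5.17, 30.4 and 2.82 RPM in normocapnia and 23.6, 18.5, 3.31 and 4.94 RPM in hypercapnia. Rab29, a relative of Rab32 named here after its values were seen, read 1.92, 10.5 and 0.069 RPM against 10.9, 8.79, 1.499 and 1.56 RPM. Both were high in NC2, HC1 and HC2 and low in the other 4 libraries, so the pattern crossed the groups, and HC1 and HC2 exceeded HC3 and HC4 by 2.11 and 2.10 on the log2 scale. In RefSeq the genes of Rab7b and Rab29 lie on the same chromosome with 3 coding genes between them, the smallest number between any neighbouring members.

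Among the 9 members of regulated secretion, Rab27a, which docks secretory and lysosome-related vesicles at the plasma membrane, read 20.1, 19.8 and 19.8 RPM in normocapnia and 20.5, 21.1, 33.7 and 34.2 RPM in hypercapnia. The groups did not overlap, yet HC1 and HC2 lay just above the normocapnia values, and the clearly higher values were those of HC3 and HC4. In the same pair of libraries the mast cell genes summed to 2316 and 2324 RPM, against at most 1833 RPM elsewhere, and the endothelial genes to 549 and 418 RPM, against at most 232 RPM. The part of these cells in the value of Rab27a was not tested. The log2 difference of Rab27a was 0.40 (SE 0.22), and the exact permutation test gave p = 0.171. Its relative Rab27b ran from 6.63 to 10.7 RPM in normocapnia and from 3.02 to 9.87 RPM in hypercapnia. Rab3d, of secretory granules, ran from 12.9 to 47.8 RPM and from 27.5 to 41.0 RPM, while Rab3a, Rab3b, Rab26, Rab37 and Rab44 read 4.62 RPM or less in every library.

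Of the remaining members, Rab28, found at cilia and in endosomal sorting, read 20.7, 19.6 and 25.4 RPM in normocapnia and 13.9, 14.8, 16.9 and 14.1 RPM in hypercapnia. Every hypercapnia value lay below every normocapnia value, as for Rab5a. The log2 difference was -0.52 (SE 0.11, 95% confidence interval -0.80 to -0.24, limma adjusted p = 0.712), a change under the 1.5-fold threshold, and the exact permutation test gave p = 0.0286. It was -0.41 without NC3. Rab23, of cilia and hedgehog signalling, ran from 2.69 to 16.6 RPM in normocapnia and from 10.5 to 12.0 RPM in hypercapnia, and Rab40c, of a ubiquitin ligase, from 32.4 to 44.2 RPM over all libraries.

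None of the associated genes was called. Of the 9 genes, 6 had a mean of at least 10 RPM, none with groups that did not overlap, and their log2 differences lay between -0.47 (Rab11fip2) and 0.34 (Rab3gap1). The choice of Rab11fip2, Rab3gap1 and Rab11fip1 for description followed a look at their values. Rab11fip2, which ties Rab11 vesicles to myosin, read 36.5, 21.4 and 29.7 RPM in normocapnia and 17.6, 17.6, 24.6 and 22.1 RPM in hypercapnia. Rab3gap1, the catalytic subunit of a Rab3 activating protein that also serves Rab18 and autophagy, read 79.7, 53.2 and 37.2 RPM against 65.9, 66.3, 69.5 and 73.4 RPM. Rab11fip1, another Rab11 effector, read 8.70, 50.3 and 0.620 RPM in normocapnia but 8.39, 6.63, 7.00 and 6.50 RPM in hypercapnia. On the log2 scale this was the widest normocapnia spread of the 9 genes (SD 2.49) against a narrow hypercapnia one (SD 0.15). The noncoding rows read 8.48 RPM or less in every library.

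The spread within the groups was unequal across the family. The median SD of log2(RPM + 1) among the 29 GTPases was 0.66 in normocapnia and 0.28 in hypercapnia, and 25 of the 29 (86.2%) varied more in normocapnia. The same held for 88.6% of all rows at that level, with medians of 0.66 and 0.23. NC3 held the highest or lowest of the 7 values for 22 of the 29 (75.9%) and for 69.2% of all rows. HC3 and HC4, which also carry Y-linked genes, did so for 3.45% and 20.7% of the 29 and for 10.3% and 12.9% of all rows. Whether Y-linked genes had a part in the extremes of NC3 was not tested. NC3 was highest for 10 members, among them Rab1a, Rab2a, Rab5a, Rab10, Rab12, Rab18 and Rab22a. It was lowest for 12, among them Rab1b, Rab5b, Rab8b, Rab32 and Rab34.

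**Figure D3:**
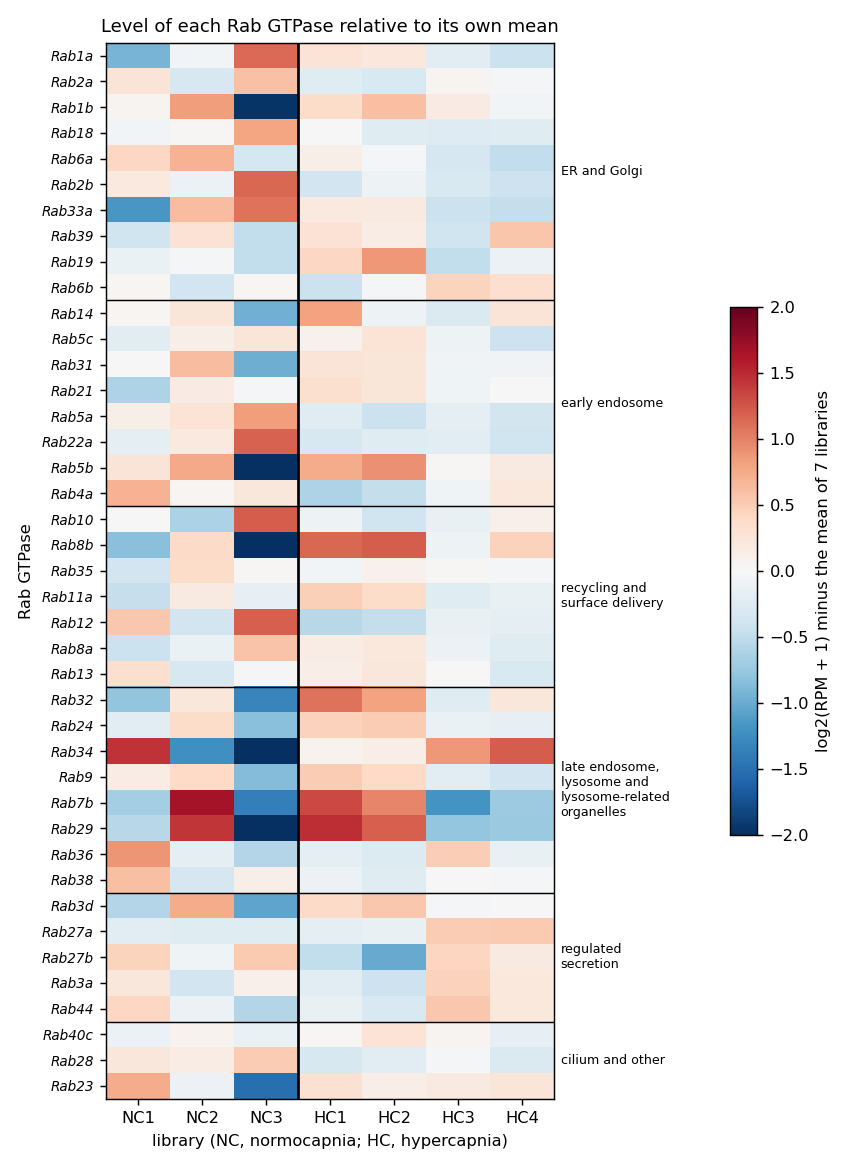
Level of the 41 Rab GTPases with a mean of at least 1 RPM in each library, as log2(RPM + 1) minus the gene's mean over the 7 libraries, grouped by role; red is above and blue below the mean. NC3 holds extremes in both directions, whereas Rab7b and Rab29 are high in NC2, HC1 and HC2.

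Because the sexes were mixed, the comparison was repeated within each kind of library: NC1 and NC2 against HC1 and HC2, which carry Xist, and NC3 against HC3 and HC4, which carry Y-linked genes. Of the 29 GTPases, 20 had a difference in the same direction in both. For 8 of them (27.6%), against 21.9% of all rows at that level, hypercapnia did not overlap with normocapnia in either kind and lay on the same side. Rab5a, Rab12, Rab22a and Rab28 were lower and Rab8b, Rab24, Rab27a and Rab32 higher. The log2 differences within the libraries with Xist and within those with Y-linked genes were 1.41 and 2.46 for Rab8b, 1.22 and 1.32 for Rab32, -0.60 and -1.35 for Rab12 and -0.46 and -0.68 for Rab28. For 2 members, Rab1a and Rab8a (6.90%, against 20.8% of rows), the groups lay apart in opposite directions. These counts rest on 1 normocapnia library with Y-linked genes.

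With the kind of library as a term in limma, chosen after the values had been seen, 4 of 54 GTPases were called (7.41%, against 5.06% of all rows). Rab8b (log2 difference 1.83, adjusted p = 0.377) and Rab32 (1.26, adjusted p = 0.391) were higher and Rab5a (-0.75, adjusted p = 0.334) and Rab12 (-0.90, adjusted p = 0.560) lower. None passed the adjustment over all rows.

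Single normocapnia libraries changed which members were called. Without NC1, 4 GTPases were called (7.41%, against 8.32% of rows): Rab5a, Rab22a and Rab33a lower and Rab34 higher. Without NC2, 7 were called (13.0%, against 5.04% of rows): Rab3d, Rab8b and Rab32 higher and Rab2b, Rab5a, Rab12 and Rab28 lower. Without NC3, the called GTPase was Rab6a, lower, and not Rab5a (1.85%, against 2.57% of rows). Rab5a had a negative difference in each of the 7 fits with a library left out, from -0.85 without NC1 to -0.49 without NC3.

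**Figure D4:**
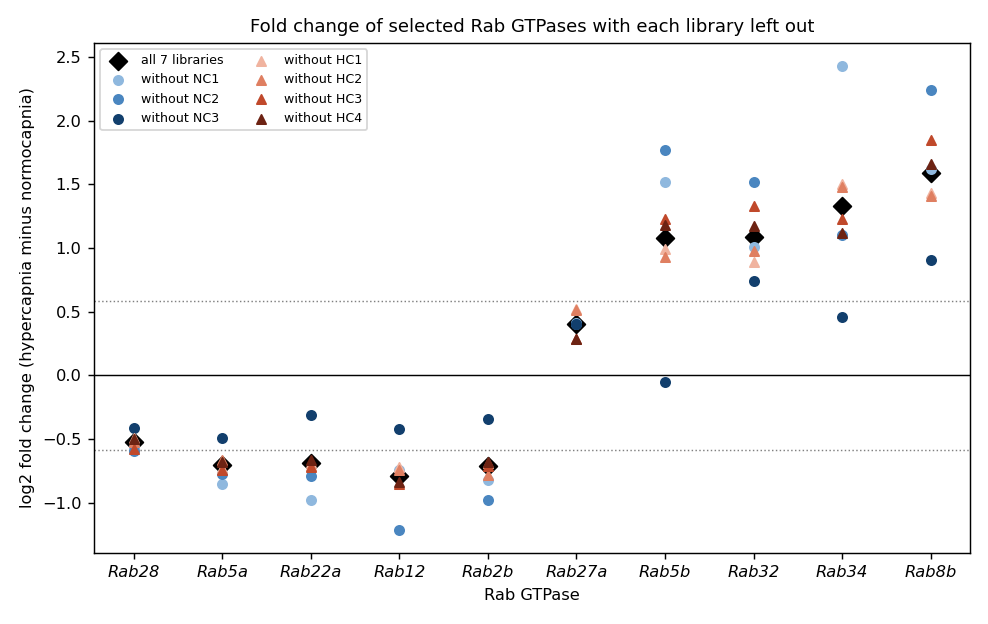
Log2 fold change of 10 Rab GTPases with all 7 libraries (diamonds), without each normocapnia library (circles) and without each hypercapnia library (triangles); dotted lines mark a fold change of 1.5. Leaving out NC3 brings most members nearer to 0 and takes Rab5b to -0.05.

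The proteins that load, switch off and read Rab GTPases were examined as a further list of 149 genes present in the table. Of these, 8 (5.37%) were called against 2.57% of all rows, 4 higher and 4 lower, none after adjustment (lowest adjusted p = 0.525 in limma). On rows with a mean of at least 1 RPM, which 139 of the list and 12504 of all rows reached, 7 (5.04%) were called against 4.46% of rows. Without NC3, 2 genes of the list were called (1.34%, against 2.57% of rows), and Golga5 alone of the 8 kept its call. Of the 110 with a mean of at least 10 RPM, 14 (12.7%) did not overlap between the groups, against 9.62% of rows. Among exchange factors, 1 of 39 was called higher and 1 lower, and among activating proteins 1 of 34 was higher. Among endosome and lysosome effectors and tethers 2 of 32 were higher and 1 lower, and among secretory, recycling and Golgi effectors 2 of 36 were lower. None of the 8 prenylation and GDP dissociation genes was called.

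The 4 called lower were Golga5, Gorasp2, Gcc2 and Dennd4a. Golga5, a golgin that binds Rab1, read 60.0, 59.8 and 106 RPM in normocapnia and 36.8, 32.0, 41.7 and 41.2 RPM in hypercapnia (log2 difference -0.92, SE 0.24). Gorasp2, a stacking protein of the Golgi, read 103, 88.9 and 226 RPM against 60.8, 58.9, 80.0 and 68.6 RPM (-0.92, SE 0.35). Neither overlapped, NC3 was the highest library in both, and without it the differences were -0.65 and -0.51. Related genes of the list were not called, such as Golga2 (0.37) and Gorasp1 (0.42), named after their values were seen. Gcc2, a golgin that captures vesicles from late endosomes with Rab9, fell by 0.64 on the log2 scale, from a mean of 15.1 to 8.99 RPM, and its difference was -0.37 and not called without NC3. Dennd4a, an exchange factor for Rab10, read 28.9, 114 and 89.4 RPM in normocapnia and 25.5, 23.7, 34.1 and 21.1 RPM in hypercapnia, with NC1 inside the hypercapnia range.

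Higher in hypercapnia were Rufy1, an effector of Rab4 on early endosomes, at 46.1, 59.6 and 30.8 RPM against 82.7, 85.0, 65.7 and 71.2 RPM, and Vps45, which works with Rab5 effectors in endosome fusion (log2 difference 0.84). The groups of Vps45 overlapped, with NC1 at 23.4 RPM above HC3 at 21.4 RPM, and without NC3 its difference was 0.55 and not called. Tbc1d5, a Rab7 activating protein bound to retromer, read 92.5, 48.9 and 36.8 RPM in normocapnia and 131, 148, 91.8 and 102 RPM in hypercapnia. HC3 lay just below NC1. Dennd2c, an exchange factor for Rab9, was low but separate, at 1.38 to 4.83 RPM against 6.12 to 8.46 RPM. Tbc1d15, an activating protein for Rab7 named here after its values were seen, had the lowest p of the list and lay apart, at 138 to 149 RPM against 85.0 to 106 RPM, but its log2 difference of -0.55 (SE 0.08, limma adjusted p = 0.525) was under the fold threshold. It was called lower with median-of-ratios scaling (-0.69), in DESeq2 (-0.75), in both edgeR fits (-0.70 filtered, -0.68 unfiltered) and without HC1 (-0.59).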

How the data were processed

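The authors made AmpliSeq libraries from RNA of sorted Pax7-GFP cells, sequenced these with an Ion S5 and deposited 1 table in RPM, that is, panel reads scaled to the same total in each library. The submitters' processing notes name the Transcriptome Analysis Console. No source used here names the aligner or the genome build. Values were whole multiples of 1 read (within 0.05 reads) for 100% of entries, so whole reads were recovered. On these edgeR 4.0.16 (quasi-likelihood, TMM) called 802 of 13293 filtered genes where the unadjusted p was under 0.05 with over 1.5-fold change, and DESeq2 1.42.0 called 1304.

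The main comparison was fitted with limma 3.58.1 (R 4.3.3) to log2(RPM + 1) of all 23930 rows, with no filter and no covariate. With a pseudocount of 1 RPM, fold changes of low genes are understated. Confidence intervals are 95%. Single members also had a two-sided exact permutation test over 35 groupings. The fit was tested on simulated data with the same spread in both groups, unlike these libraries. That test therefore does not show how many real changes the fit would miss here. Groups came from the sample labels. Members, roles, gene lists and tests were chosen with earlier results of these data known.

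Members named are those called, those with a mean of at least 10 RPM and no overlap, and 20 set by their role: Rab1a, Rab1b, Rab5a, Rab5b, Rab5c, Rab7, Rab7b, Rab8a, Rab9, Rab10, Rab11a, Rab11b, Rab12, Rab14, Rab24, Rab27a, Rab31, Rab32, Rab33b and Rab38. Rab11b and Rab33b had no row, so no value is given for them. From the list of regulators and effectors, the called genes are named, at most 10 in each direction. Genes named outside this rule are marked as singled out after their values were seen or are given by range. Alternatives were other pseudocounts, a filter, other scaling, other tools, a replicate block, leaving out each library and, added after seeing the data, the sex-linked genes.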

Additional observations from a re-analysis of the deposited data

Results flagged for a closer look

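Among the 35 Rab rows with a mean of at least 10 RPM, 1 held a hypercapnia library far from the other 3: Rab18, of lipid droplets and the endoplasmic reticulum, read 96.0 RPM in HC1 against 80.9 to 82.1 RPM in HC2 to HC4, a gap of 0.914 of the group's range on the log2 scale. Chance flags about 1 in 20 such groups. Normocapnia, with 3 libraries, was not examined in this way.

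Rab1a and Rab8a lay apart in opposite directions in the 2 kinds of library. They were 6.90% of the 29 GTPases with a mean of at least 10 RPM, against 20.8% of all rows at that level. In the libraries with Xist every hypercapnia value lay above every normocapnia value (log2 differences 0.73 for Rab1a and 0.46 for Rab8a), and in the libraries with Y-linked genes every hypercapnia value lay below NC3 (-1.46 and -0.75). The associated genes Rab11fip5 (0.62 with Xist, -0.69 with Y-linked genes) and Rab11fip1 (-1.4 and 2.26) also lay apart in opposite directions. Both were named after their values were seen. The difference between the kinds was not tested, and the comparison with Y-linked genes has 1 normocapnia library.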

How the results depend on the processing

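Rab5a was lower in hypercapnia in all 19 alternatives, of which 2 were added after seeing the data, but its call was lost with median-of-ratios scaling (-0.85), without NC3 (-0.49) and in the 4 libraries with Xist alone (-0.52). The count of Rab GTPases called, 1 as reported (1.85%, against 2.57% of all rows), was 3 with a filter at a mean of 1 RPM (7.32%, against 4.46%), 2 with quantile normalization (3.70%, against 2.90%), 3 and 5 in edgeR with (6.52%, against 6.03%) and without a filter (9.26%, against 4.38%), 6 in DESeq2 (11.1%, against 5.45%), 4 with the sex-linked genes as a term (7.41%, against 5.06%) and 0 in the 4 libraries with Xist (against 4.24%), where 4 had an unadjusted p under 0.05 in limma. It ran from 1 to 7 when a library was left out, the 7 without NC2 (13.0%, against 5.04%). The count stayed at 1 with median-of-ratios scaling because Rab4a, at 0.642 to 3.08 RPM, was called lower in place of Rab5a, and Rab4a was also called with quantile normalization and without HC4. Of the 9 associated genes, 0 called as reported, Rab11fip2 was called lower with median-of-ratios scaling, quantile normalization and DESeq2 (1 each, against 2.56%, 2.90% and 5.45% of rows). With a library left out the count was 0 to 1, with Rab3gap1 higher without NC1 (against 8.32%) and Rab11fip2 lower without NC2 (against 5.04%). Regulators and effectors called, 8 as reported, were 15 in DESeq2 (10.1%, against 5.45% of rows), 13 with the sex-linked term (8.72%, against 5.06%) and from 2 without NC3 (1.34%, against 2.57%) to 26 without NC1 (17.4%, against 8.32%). GTPases without overlap, 4 as reported, were 2 with either rescaling, Rab5a and Rab28 without Rab22a and Rab27a (6.90%, against 9.10% and 9.98% of rows), 13 in the 4 libraries with Xist (44.8%, against 46.1%), and 4 to 11 when a library was left out. The highest were 7 without NC1 (24.1%, against 31.5%) and 11 without NC2 (37.9%, against 25.9%). Rescaling by median of ratios moved the median of all rows from 0.16 to 0.04, and that of the GTPases from 0.11 to -0.03. Of all rows called, 55.8% were higher, against 36.7% in edgeR with a filter. The cause of these shifts was not tested.

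With the replicate number as a block, 2 GTPases were called, Rab5a and Rab8b (3.70%, against 598 of all 23930 rows), while Rab1a (0.04), Rab5c (0.03) and Rab8a (0.08) changed sign. Deviations of same-numbered libraries correlated at -0.349, 0.503 and -0.044. Values of such mixed sign from so few libraries cannot decide whether the numbers pair the samples. Other changes of sign among the named members were Rab7b with quantile normalization (-0.14), edgeR (-0.03 with and -0.04 without a filter) and DESeq2 (-0.05), Rab9 (-0.02) and Rab8a (0.01) with quantile normalization, and in the libraries with Xist Rab1a (0.73), Rab5c (0.22), Rab8a (0.46), Rab10 (0.07), Rab31 (-0.05) and Rab34 (-0.01). With a library left out, the ranges were -0.58 to 0.45 for Rab1a, -0.18 to 1.22 for Rab1b, -0.05 to 1.77 for Rab5b, -0.22 to 0.03 for Rab5c, -0.40 to 1.12 for Rab7b, -0.22 to 0.28 for Rab8a, -0.20 to 0.44 for Rab9, -0.75 to 0.18 for Rab10, -0.21 to 0.58 for Rab31 and -0.45 to 0.02 for Rab38. Rab8a lay near 0 with all 7 libraries. Over the named members, 358 of 418 refitted values kept direction and side of the threshold. Depth limits the members near the floor of 3 reads, and its part in the other values was not tested. NC3 had the fewest reads (14527445) and the fewest genes at 1 RPM or more (10619, against 13932 in HC4). Its median-of-ratios scale was 0.689, against 1.25 in NC1.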
